A study of Homo sapiens with 12 samples.

Results

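MicroRNA host genes are transcription units named for a microRNA that lies within them or close by. Here they were taken as the genes whose symbol begins with MIR, ends with HG and has only capital letters and digits between. Of 60645 gene names in the count tables, 74 followed this rule. At least 60 counts in total over the 12 libraries were held by 34 of the 74, which were tested. Another 25 had between 1 and 59 counts, and 15 had no count in any library. Protein-coding and other genes that carry microRNAs under other names, and 10 host genes with a hyphen in the symbol, lie outside the rule.

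A host gene is transcribed by RNA polymerase II into a long primary transcript. In the nucleus DROSHA and its partner DGCR8 cut the microRNA hairpin out of that transcript, DICER1 then releases the short mature strand, and an Argonaute protein carries it to messenger RNAs that pair with its seed, bases 2 to 8 from its 5′ end. The counts used here measured polyadenylated host transcripts. Mature microRNAs are too short for such libraries and were not measured.

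The RNA came from HEK-293T, a human embryonic kidney cell line, in which ARID1A had been knocked out. It encodes a DNA-contacting subunit of the canonical BAF (SWI/SNF) chromatin remodelling complex, and IDR1b names a stretch of that protein, as the labels give it. All 6 groups carried the knockout. For ARID1A they received nothing but a vector, the wild-type protein (WT), or a form lacking IDR1b (ΔIDR1b). Each of these was combined with a second empty vector or with EWS-FLI1, the fusion transcription factor of Ewing sarcoma. The first of these are called no ARID1A, WT and ΔIDR1b below, and "empty vector" below means the second vector. The labels name 2 µg of EWS-FLI1 plasmid and a wait of 48 h. Each group had 2 libraries, called repeat 1 and repeat 2. The study asked what IDR1b does in transcription regulated by EWS-FLI1. The labels name 1 knockout line, and the vector of ARID1A, its promoter and whether repeats were separate cultures are not given there, so p-values measure only the spread between these libraries.

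The libraries held between 11702251 and 14445379 counts. A count of 0 in a library allows up to 3 counts, or between 0.208 and 0.256 CPM (counts per 1e+06 counts), for counting error only. Library sizes behind the CPM below were TMM-scaled. ARID1A itself measured 147.6 to 164.5 CPM in the 4 libraries of no ARID1A. It measured 1842 to 2290 CPM in the 4 of WT, and the 4 of ΔIDR1b were higher again, at 2609 to 2876 CPM; its part in the results on ΔIDR1b was not tested. FLI1 had at most 2 counts in any empty-vector library. It ran from 1690 to 1831 CPM with EWS-FLI1 in no ARID1A, from 3461 to 3674 in WT and from 1888 to 1906 in ΔIDR1b. The part of this unequal level in comparisons of states with EWS-FLI1 was not tested. Of 8 genes typical of this line, PAX2, LHX1, CDH2, VIM, NEFL, KRT18 and HOXA9 had at least 57 counts in each library, and NEFM had at most 1. Of 8 genes of other cell types, COL1A1 had at least 878 counts in each library, and the other 7 had at most 13. The 2 libraries of every group differed beyond sampling noise, with a chi-square per degree of freedom over genes from 3.02 to 12.1.

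The tested host genes carried 56 microRNA genes on their own strand, of which 29 lay in exons, 24 in introns and 3 partly in an exon. RefSeq (GRCh38.p14) gave mature sequences for 53 of the 56. The following are the leading mature strands of host genes whose counts changed in the same direction with both vectors, with the seed in capitals. MIR17HG carries 6 microRNAs in one exon, and miR-17-5p and miR-20a-5p share a seed, as do miR-19a-3p and miR-19b-3p.
miR-17-5p: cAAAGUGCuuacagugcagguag
miR-20a-5p: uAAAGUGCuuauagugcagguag
miR-18a-5p: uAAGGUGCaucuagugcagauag
miR-19a-3p: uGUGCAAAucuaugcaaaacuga
miR-19b-3p: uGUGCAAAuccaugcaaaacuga
miR-92a-3p: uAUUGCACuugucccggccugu
miR-34a-5p: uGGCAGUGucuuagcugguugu
miR-22-3p: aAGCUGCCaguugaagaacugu
miR-181a-5p: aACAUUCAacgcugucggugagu
miR-181b-5p: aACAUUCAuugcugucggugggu
miR-503-5p: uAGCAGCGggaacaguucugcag
miR-210-3p: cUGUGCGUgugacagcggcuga
miR-600: aCUUACAGacaagagccuugcuc
miR-3936: uAAGGGGUguauggcagaugca
miR-4453: gAGCUUGGucuguagcgguu
miR-1915-3p: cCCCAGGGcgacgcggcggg

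One seed, that of let-7, was shared by microRNAs of 6 tested host genes: MIRLET7A1HG, MIRLET7BHG, MIRLET7IHG, MIR99AHG, MIR4458HG and MIR4500HG. A representative of each host is shown because these hosts are read together by seed below, and the capitals again mark the seed.
let-7a-5p (MIRLET7A1HG and MIRLET7BHG): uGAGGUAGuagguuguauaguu
let-7b-5p (MIRLET7BHG): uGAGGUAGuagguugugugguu
let-7i-5p (MIRLET7IHG): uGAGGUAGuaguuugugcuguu
let-7c-5p (MIR99AHG): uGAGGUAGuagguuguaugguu
miR-4458 (MIR4458HG): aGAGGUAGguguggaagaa
miR-4500 (MIR4500HG): uGAGGUAGuaguuucuu
The 56 microRNA genes themselves held almost no counts: 44 had none in any library, 6 had more than 3 in total, and the highest, MIR221, had 56. For the 29 that lie in host exons this was fixed by the counting rule, since fragments that overlapped both genes were not counted. Their lack of counts therefore says nothing about these microRNA genes.

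Host transcripts were scarce. The median mean level was 3.38 CPM over the 34 tested members, against 11.9 CPM over all 20463 genes tested. Per kilobase of exon, the highest mean levels were those of MIR210HG (7.30 CPM per kb), MIR222HG (6.10) and MIR30DHG (5.56). MIR17HG (3.73) and MIR503HG (3.67) followed, and MIR646HG was lowest at 0.0411 CPM per kb. All members together held between 0.0176 and 0.0198% of the counts in the 8 libraries of no ARID1A and WT, and between 0.0245 and 0.0266% in the 4 of ΔIDR1b. Without MIR30DHG, the most counted member, these shares were 0.0146 to 0.0171% and 0.019 to 0.0205%, and without MIR210HG and MIR600HG too, 0.0121 to 0.0144% and 0.0143 to 0.0156%. With these 3 members left out, chosen after their values were seen, the ranges overlapped. These shares are of unscaled counts. In bulk RNA, fewer cells with a transcript and less transcript per cell cannot be told apart.

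**Figure D1:**
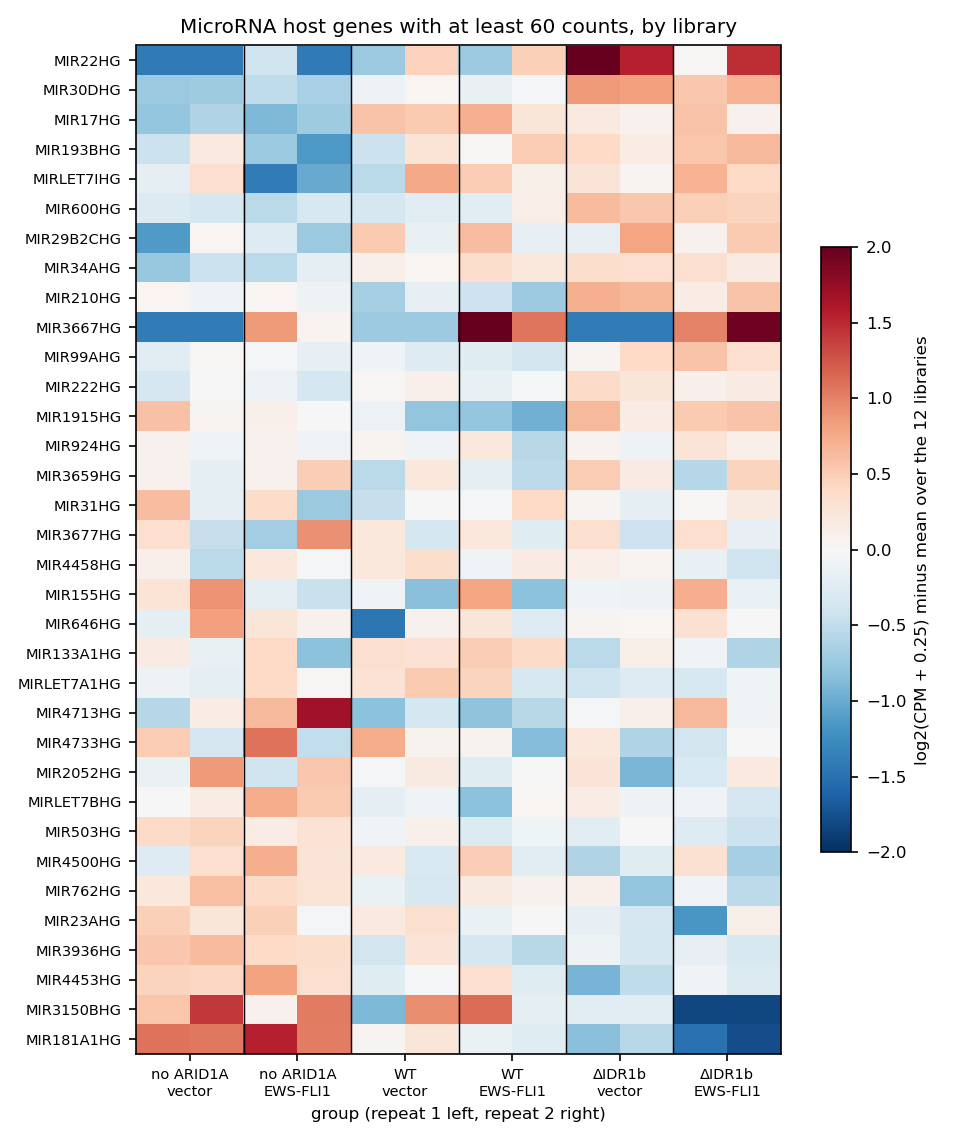
Level of each of the 34 tested host genes (rows) in each of the 12 libraries (columns, by group), as log2(CPM + 0.25) minus the gene's mean over the 12 libraries, with colours limited at 2 on either side. Rows are ordered by the difference between ΔIDR1b and no ARID1A: MIR22HG, MIR30DHG and MIR17HG stand at the top and MIR181A1HG at the bottom, and MIR3667HG is high in the 6 EWS-FLI1 libraries.

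Host gene levels differed mainly with the ARID1A state. Across the 6 groups, 15 of 34 members differed in edgeR's quasi-likelihood test (Benjamini-Hochberg adjusted p under 0.05 over all genes, the rule for every call below), 44.1% against 47.0% of all genes tested. In the comparison of WT with no ARID1A, 4 members were called with the empty vector (11.8%, against 11.5% of all genes), 3 higher and 1 lower (6.37 and 5.15% of all genes). With EWS-FLI1 it was 8 (23.5%, against 17.8%), 4 in each direction (9.52 and 8.24%). For ΔIDR1b against no ARID1A, 11 were called with the empty vector (32.4%, against 33.0%), 7 higher and 4 lower (16.3 and 16.8%). With EWS-FLI1 13 were called (38.2%, against 35.6%), 7 higher and 6 lower (17.8 and 17.7%). For ΔIDR1b against WT, 5 were called with the empty vector (14.7%, against 24.3%), each of them higher (11% of all genes were higher and 13.3% lower). With EWS-FLI1 there were 7 (20.6%, against 18.5%), 5 higher and 2 lower (8.44 and 10.0%). Under upper-quartile scaling the split over all genes turned: with the empty vector WT against no ARID1A went from 1303 higher and 1053 lower to 903 and 1368, and ΔIDR1b against WT from 2253 and 2723 to 2772 and 2197. With EWS-FLI1, WT against no ARID1A went from 1949 and 1687 to 1495 and 2054, and the members there from 4 and 4 to 4 and 6. Also with EWS-FLI1, ΔIDR1b against WT went from 1728 and 2054 to 2001 and 1711, and ΔIDR1b against no ARID1A from 3651 and 3627 to 3498 and 3747 (3498 and 3751 with RLE size factors). The members' shares were thus near those of all genes in most comparisons and say nothing particular about host genes.

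**Figure D2:**
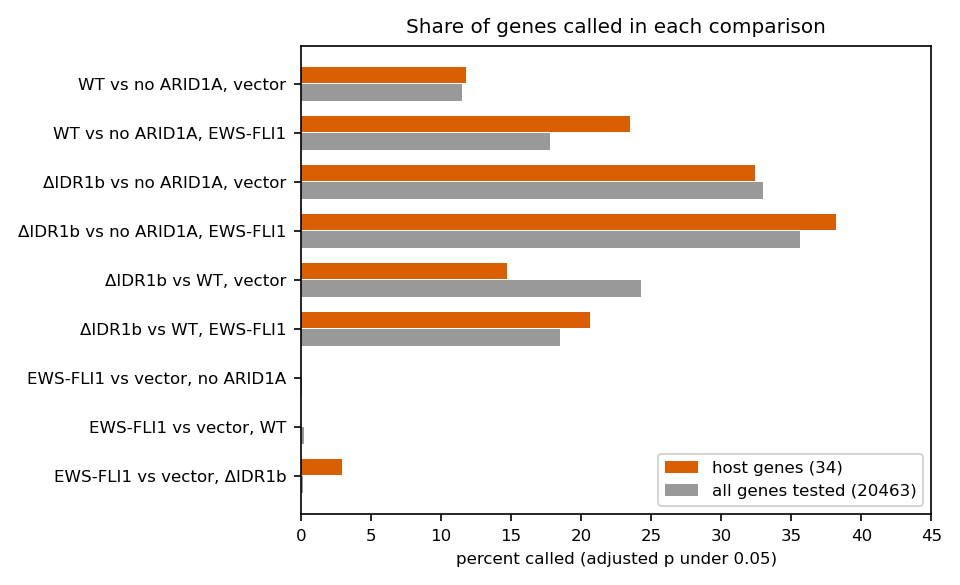
Percentage of the 34 tested host genes (orange) and of all 20463 genes tested (grey) called in each comparison; the axis is linear and starts at 0. The bars of both sets are close in the comparisons of ARID1A states, with the widest gap in ΔIDR1b against WT with the empty vector (14.7% and 24.3%), and EWS-FLI1 against empty vector gave 1 host gene, in ΔIDR1b.

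The median log2 fold change of the tested members stayed near 0, as did that of all genes. For ΔIDR1b against no ARID1A it was -0.01 with the empty vector (0.00 over all genes) and -0.12 with EWS-FLI1 (0.02). With members at 3 or fewer counts in a group set to their bound, it was -0.03 and -0.12. For WT against no ARID1A it was -0.09 (-0.01) and -0.16 (-0.02). Each pair of ARID1A states was compared with the empty vector and again with EWS-FLI1, and these comparisons share no library. Members called in the same direction in both numbered 4 for WT against no ARID1A (11.8% of the 34, against 8.26% of all genes), 9 for ΔIDR1b against no ARID1A (26.5%, against 26.0%) and 4 for ΔIDR1b against WT (11.8%, against 13.5%). The comparisons of both forms with no ARID1A do share the libraries of no ARID1A, so their values are given side by side.

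Several hosts carry microRNAs that act on the cell cycle and are described first. MIR17HG (chr13:91347820-91354579, plus strand) is the primary transcript of the miR-17-92 cluster, which MYC activates and which promotes proliferation. It stood at 7.58 and 8.54 CPM in no ARID1A with the empty vector and at 6.91 and 7.87 with EWS-FLI1. In WT it reached 19.47 and 18.96 CPM with the empty vector, then 21.6 and 15.5 with EWS-FLI1, and in ΔIDR1b 15.1 and 13.9 and then 19.5 and 13.9. All 8 libraries with an ARID1A form lay above all 4 without. The log2 fold change of WT over no ARID1A was 1.25 (SE 0.20, edgeR adjusted p 7.19e-05) with the empty vector and 1.33 (SE 0.21, adjusted p 2.21e-05) with EWS-FLI1. That of ΔIDR1b was 0.84 (SE 0.21, adjusted p 0.00176) and 1.17 (SE 0.21, adjusted p 3.81e-05). ΔIDR1b was not called against WT, at -0.41 (95% interval -0.79 to -0.03, adjusted p 0.12) and -0.15 (-0.53 to 0.22, adjusted p 0.619). These intervals are not adjusted for the number of genes tested, and the first lies wholly on the negative side. The nearest tested gene, GPC5, 44042 bases away on the same strand, gave -0.58 and -0.41 for WT over no ARID1A, and neither value was called (adjusted p 0.213 and 0.395). Exons of the 6 microRNAs make up 12.5% of the exonic bases of MIR17HG, and fragments that overlapped both were not counted.

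MIR34AHG (chr1:9148011-9198906, minus strand) carries miR-34a, a target of p53 that restrains the cell cycle. It stood at 7.29 and 9.21 CPM in no ARID1A with the empty vector and at 8.44 and 10.98 with EWS-FLI1. WT gave 13.4 and 12.8 CPM and then 15.9 and 14.6, and ΔIDR1b 15.9 and 15.8 and then 15.5 and 13.9. Again every library with an ARID1A form was above every library without. For WT over no ARID1A the log2 fold change was 0.67 (SE 0.20, edgeR adjusted p 0.0245) with the empty vector and 0.65 (SE 0.20, adjusted p 0.0184) with EWS-FLI1, and for ΔIDR1b 0.94 (SE 0.20, adjusted p 0.000314) and 0.60 (SE 0.20, adjusted p 0.0163). In statements of lost calls, a required log2 fold change of 1 is left aside unless alternatives are counted. The WT call with the empty vector was lost without any 1 of the 4 libraries compared (adjusted p up to 0.23). With EWS-FLI1 the calls were lost without repeat 1 of no ARID1A or of the ARID1A form (adjusted p up to 0.241 for WT and 0.213 for ΔIDR1b), and for WT also in a fit of the compared libraries alone. LNCTAM34A overlaps MIR34AHG on the opposite strand and was not called in any of these comparisons.

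MIR22HG (chr17:1711447-1717174, minus strand) carries miR-22 in an exon, a microRNA described as growth-restraining in many tumours. In counts, it had 0 and 0 in no ARID1A with the empty vector, then 3 and 0 with EWS-FLI1. In WT it had 2 and 9 counts with either vector, and in ΔIDR1b 36 and 24 with the empty vector but 6 and 23 after EWS-FLI1. MIR22HG met the limit of 60 counts only through the ΔIDR1b libraries, so its place among the tested members rests on the state where it was high. The transcript was near the floor without ARID1A and was counted best in ΔIDR1b with the empty vector. There it was at least 19.4-fold higher than in no ARID1A (60 against 0 counts, floor of 3 counts over the group, 95% counting limit 15.3-fold, edgeR adjusted p 0.000194). Counting limits and intervals, here and below, hold counting error only and leave out the spread between libraries. With EWS-FLI1 the ratio to no ARID1A was 7.90 (29 against 3 counts, 95% counting interval 2.45 to 40.5, adjusted p 0.0376). That call was lost with DESeq2, with the repeat number as a block over all libraries, and without repeat 2 of either group (adjusted p up to 0.392). Against WT, ΔIDR1b was higher with the empty vector (log2 2.38, SE 0.86, adjusted p 0.042), a call lost with DESeq2 and without repeat 1 of WT or either repeat of ΔIDR1b (up to 0.292). WDR81, whose span overlaps MIR22HG on the opposite strand without sharing exons, rose as well: the log2 fold change of ΔIDR1b over no ARID1A was 1.23 (adjusted p 5.13e-06) and 0.88 (adjusted p 0.000358). The library kit did not mark strand, and a part of WDR81 in the counts of MIR22HG was not tested.

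MIR181A1HG (chr1:198777861-198937471, minus strand) carries miR-181a and miR-181b in introns, microRNAs best known from lymphocyte development. It had 28 and 27 counts in no ARID1A with the empty vector, then 35 and 23 with EWS-FLI1. WT gave 12 and 14 and then 10 and 9, and ΔIDR1b 5 and 7 and then 2 and 1. The 3 states formed a descending order without overlap with either vector. Against no ARID1A, ΔIDR1b fell by 2.22 on the log2 scale with the empty vector (SE 0.63, edgeR adjusted p 0.00657, but 0.064 without repeat 1 of ΔIDR1b). With EWS-FLI1 it was 23.7-fold lower (3 against 58 counts, 95% counting interval 7.71 to 118, adjusted p 2.82e-05). WT was lower than no ARID1A by 1.08 with the empty vector, which was not called (log2 -1.08, adjusted p 0.242), and fell by 1.78 with EWS-FLI1 (SE 0.59, adjusted p 0.0337). This last call was lost without any 1 of its 4 libraries (up to 0.249). ΔIDR1b was 6.82-fold lower than WT with EWS-FLI1 (3 against 19 counts, interval 2.01 to 36.0, adjusted p 0.0285, up to 0.157 without repeat 1 of WT or either repeat of ΔIDR1b). The copy of this cluster on chromosome 9, MIR181A2HG, had 52 counts in all and was not tested.

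MIR503HG (chrX:134543119-134546642, minus strand) carries miR-503 and adjoins miR-424, which target cell-cycle genes. Its levels were 14.1 and 14.8 CPM in no ARID1A with the empty vector, then 12.0 and 13.3 with EWS-FLI1, 10.3 and 11.6 and then 8.88 and 10.2 in WT, and 9.28 and 10.8 and then 8.99 and 7.99 in ΔIDR1b. The 4 libraries without ARID1A were the highest of the 12. ΔIDR1b fell by 0.53 on the log2 scale with the empty vector (SE 0.20, edgeR adjusted p 0.0363) and by 0.58 with EWS-FLI1 (SE 0.20, adjusted p 0.0244). Both calls were lost without any 1 of the 4 libraries compared (up to 0.226 and 0.148), and the first also without a count filter. WT gave -0.41 with either vector, and neither value was called (adjusted p 0.183 and 0.159).

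MIR222HG (chrX:45745210-45770274, minus strand) carries miR-221 and miR-222, which target the cell-cycle inhibitor CDKN1B. It ran at 13.7 and 17.1 CPM in no ARID1A with the empty vector, then 15.9 and 13.5 with EWS-FLI1, at 17.6 and 18.6 and then 15.7 and 16.8 in WT, and at 22.5 and 20.4 and then 18.5 and 19.3 in ΔIDR1b. The groups lay close together. It was called in 1 comparison, ΔIDR1b over no ARID1A with the empty vector (log2 0.48, SE 0.17, edgeR adjusted p 0.0283). The call was lost without a count filter, without repeat 1 of no ARID1A and without either repeat of ΔIDR1b (up to 0.275). With EWS-FLI1 the value was 0.36 (adjusted p 0.104).

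**Figure D3:**
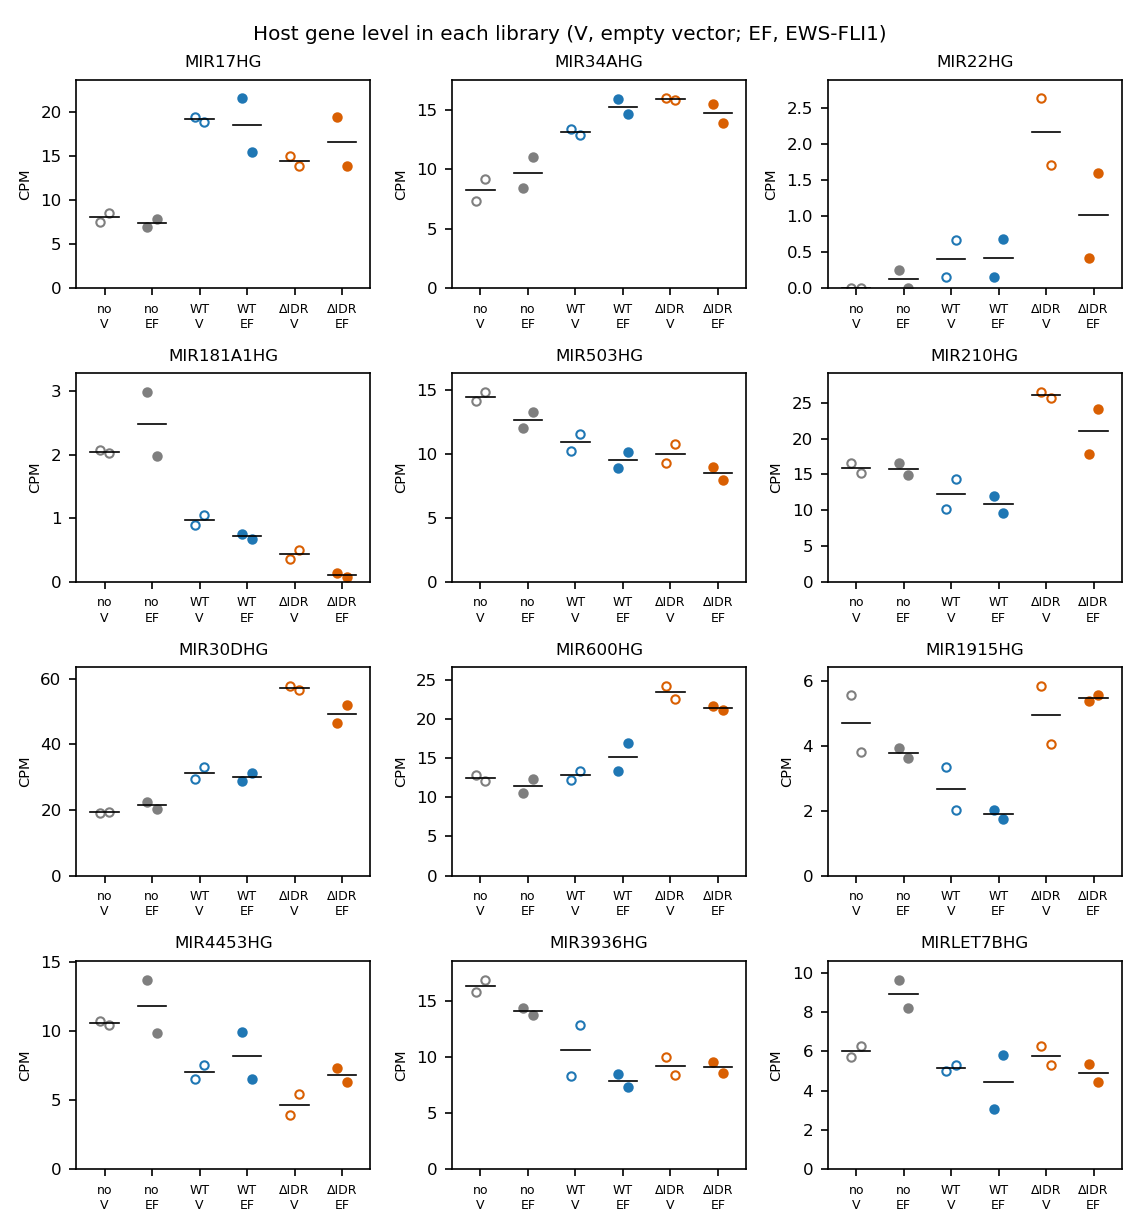
Level (CPM, linear axis from 0) of 12 host genes in each library: open circles, empty vector (V); filled circles, EWS-FLI1 (EF); grey, no ARID1A (no); blue, WT; orange, ΔIDR1b (ΔIDR); the line marks the mean of the 2 libraries. MIR17HG and MIR34AHG are higher in both ARID1A forms, MIR30DHG, MIR600HG and MIR210HG are highest in ΔIDR1b, and MIR181A1HG falls from no ARID1A over WT to ΔIDR1b.

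Some other hosts were highest in ΔIDR1b. MIR30DHG, on chromosome 8, is a transcript of 1 exon block and 6253 bases with no annotated microRNA in its own span. The hairpins of miR-30b and miR-30d lie 2248 and 6604 bases from it on the same strand. It had 19.1 and 19.4 CPM in no ARID1A with the empty vector, then 22.5 and 20.3 with EWS-FLI1. WT gave 29.6 and 33.0 and then 28.8 and 31.1, and ΔIDR1b 57.8 and 56.6 and then 46.6 and 52.0. The states formed a rising order with no overlap. ΔIDR1b exceeded no ARID1A by 1.57 on the log2 scale with the empty vector (SE 0.14, edgeR adjusted p 7.69e-11) and by 1.20 with EWS-FLI1 (SE 0.14, adjusted p 1.99e-08). It exceeded WT by 0.87 (SE 0.13, adjusted p 1.01e-05) and 0.72 (SE 0.13, adjusted p 0.000224). WT exceeded no ARID1A by 0.70 (SE 0.14, adjusted p 0.000836) and 0.48 (SE 0.14, adjusted p 0.0132), the latter lost without repeat 2 of either group and in a fit of the compared libraries alone (up to 0.15). Its neighbour ZFAT, 78971 bases away, was also higher in ΔIDR1b than in no ARID1A with the empty vector (1.18, adjusted p 7.47e-05) but was not called with EWS-FLI1 (0.42, adjusted p 0.136).

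MIR210HG (chr11:565657-568457, minus strand) carries miR-210, the microRNA most consistently induced by hypoxia through HIF. Its values were 16.6 and 15.1 CPM in no ARID1A with the empty vector, then 16.5 and 15.0 with EWS-FLI1, 10.1 and 14.4 and then 12.0 and 9.62 in WT, and 26.5 and 25.6 and then 17.8 and 24.1 in ΔIDR1b. Every ΔIDR1b library was above, and every WT library below, all 4 libraries without ARID1A. ΔIDR1b exceeded WT by 1.09 (SE 0.19, edgeR adjusted p 5.99e-05) with the empty vector and by 0.95 (SE 0.19, adjusted p 0.000607) with EWS-FLI1, and both calls held without any 1 library. It exceeded no ARID1A by 0.72 (SE 0.18, adjusted p 0.00279) with the empty vector, whereas 0.41 with EWS-FLI1 was not called (adjusted p 0.0843). WT against no ARID1A gave -0.37 (adjusted p 0.226) and -0.54 (adjusted p 0.0533). RASSF7 and PHRF1, which lie 1632 and 8013 bases away, were not called for ΔIDR1b against WT with either vector.

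MIR600HG (chr9:123109494-123115477, minus strand) is a single exon block of 5984 bases within the span and on the strand of STRBP. It stood between 10.6 and 12.8 CPM in the 4 libraries of no ARID1A, at 12.2 and 13.4 CPM in WT with the empty vector and at 13.4 and 16.9 with EWS-FLI1. ΔIDR1b gave 24.2 and 22.6 and then 21.7 and 21.1 CPM, above all other libraries. ΔIDR1b exceeded no ARID1A by 0.91 (SE 0.17, edgeR adjusted p 0.000109) and 0.90 (SE 0.18, adjusted p 0.000154), and WT by 0.87 (SE 0.17, adjusted p 0.000352) and 0.50 (SE 0.17, adjusted p 0.0393). The last call was lost without repeat 1 of WT or either repeat of ΔIDR1b, with DESeq2, without a count filter, and in a fit of the compared libraries alone (up to 0.255). For ΔIDR1b over no ARID1A, STRBP gave 0.26 (adjusted p 0.0647) and 0.47 (adjusted p 0.000986).

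MIR1915HG (chr10:21490272-21497260, minus strand), the host of miR-1915, was lowest in WT. It had 5.58 and 3.82 CPM in no ARID1A with the empty vector, then 3.92 and 3.63 with EWS-FLI1, 3.34 and 2.02 and then 2.03 and 1.74 in WT, and 5.85 and 4.07 and then 5.38 and 5.56 in ΔIDR1b. ΔIDR1b exceeded WT by 0.88 with the empty vector (SE 0.33, edgeR adjusted p 0.0499) and by 1.53 with EWS-FLI1 (SE 0.35, adjusted p 0.00197). The call with the empty vector was lost under 12 of 21 alternatives, with adjusted p up to 0.354, among them DESeq2 and the removal of either ΔIDR1b library. The other held in all 21 alternatives.

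**Figure D4:**
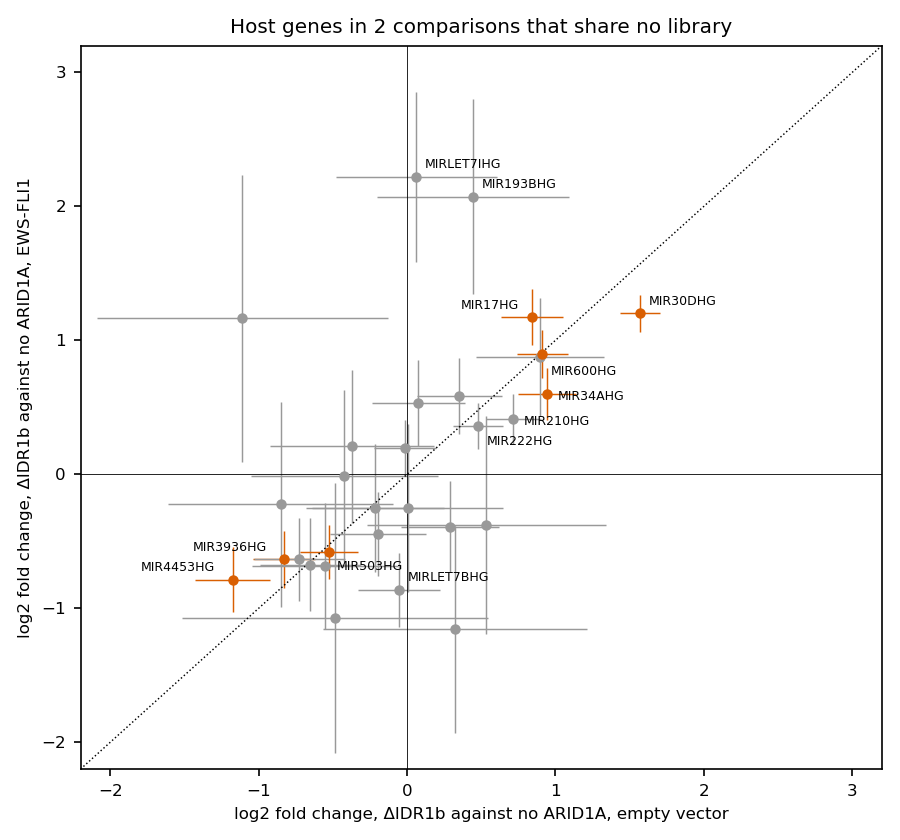
Log2 fold change of ΔIDR1b over no ARID1A with the empty vector (horizontal) and with EWS-FLI1 (vertical) for 30 tested host genes, with bars of 1 SE; 4 members with 3 or fewer counts in a group are left out. The 7 host genes called in the same direction with both vectors (orange) lie near the dotted line of equal change, from MIR30DHG at 1.57 and 1.20 to MIR4453HG at -1.17 and -0.79; MIRLET7IHG and MIR193BHG lie far above it.

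MIR4453HG and MIR3936HG fell. MIR4453HG (chr4:152536264-152539263, plus strand) begins 172 bases from FBXW7, a ubiquitin ligase subunit gene on the opposite strand. It stood at 10.7 and 10.5 CPM in no ARID1A with the empty vector and at 13.7 and 9.86 with EWS-FLI1, at 6.54 and 7.54 and then 9.93 and 6.52 in WT, and at 3.95 and 5.43 and then 7.36 and 6.32 in ΔIDR1b. ΔIDR1b was below no ARID1A with either vector, and fell by 1.17 (SE 0.25, edgeR adjusted p 0.000466) and by 0.79 (SE 0.24, adjusted p 0.0112). The second call was lost without repeat 1 of no ARID1A or repeat 2 of ΔIDR1b (up to 0.208). FBXW7 gave -0.23 (adjusted p 0.153) and -0.40 (adjusted p 0.00915) in the same comparisons.

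MIR3936HG (chr5:132311285-132370170, minus strand) lies across the carnitine transporter gene SLC22A5 and SLC22A4 on the opposite strand, and 14.2% of its exonic bases overlap exons of other genes. Its values were 15.8 and 16.8 CPM in no ARID1A with the empty vector, then 14.3 and 13.8 with EWS-FLI1, 8.32 and 12.8 and then 8.50 and 7.27 in WT, and 10.0 and 8.36 and then 9.56 and 8.55 in ΔIDR1b. All 4 libraries without ARID1A were above the other 8. WT fell by 0.62 (SE 0.21, edgeR adjusted p 0.0452) and 0.83 (SE 0.22, adjusted p 0.00626) on the log2 scale, and ΔIDR1b by 0.83 (SE 0.21, adjusted p 0.00239) and 0.63 (SE 0.21, adjusted p 0.019). The first of these was lost under 10 of 21 alternatives (adjusted p up to 0.462), including DESeq2. The other 3 were lost without repeat 1 of no ARID1A (0.0552), without repeat 2 of ΔIDR1b (0.0541), and without either repeat of no ARID1A or repeat 2 of ΔIDR1b (up to 0.121). SLC22A5 moved the other way: it rose in ΔIDR1b by 0.87 (adjusted p 5.16e-06) and 0.93 (adjusted p 2.13e-06).

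The let-7 microRNAs promote differentiation. The 6 hosts grouped here by the let-7 seed, of which MIR4458HG and MIR4500HG carry microRNAs of other names, did not move together. MIRLET7IHG (chr12:62602752-62622213, plus strand) had 4 and 6 counts in no ARID1A with EWS-FLI1 and between 11 and 32 in each of the other 10 libraries. With EWS-FLI1 it was therefore higher in WT (log2 1.96, SE 0.65, edgeR adjusted p 0.0313) and in ΔIDR1b (2.22, SE 0.63, adjusted p 0.00614) than in no ARID1A. With the empty vector the values were 0.18 and 0.06, with adjusted p of 0.88 and 0.944. The WT call was lost without repeat 1 of WT or either repeat of no ARID1A (up to 0.203), and the ΔIDR1b call without repeat 1 of no ARID1A (0.072).

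MIRLET7BHG (chr22:46053869-46113928, plus strand) moved the opposite way, since it was highest in no ARID1A with EWS-FLI1. It had 9.64 and 8.22 CPM there and 5.73 and 6.29 with the empty vector, 4.98 and 5.30 and then 3.09 and 5.84 in WT, and 6.28 and 5.29 and then 5.38 and 4.45 in ΔIDR1b. With EWS-FLI1 it was lower in WT (log2 -1.0003, SE 0.28, edgeR adjusted p 0.0109) and in ΔIDR1b (-0.86, SE 0.28, adjusted p 0.0141). The WT call was lost without repeat 1 of either group (up to 0.172), and the ΔIDR1b call without repeat 1 of no ARID1A or repeat 2 of ΔIDR1b (up to 0.114). MIR99AHG was called in ΔIDR1b over WT with EWS-FLI1 (0.80, SE 0.29, adjusted p 0.0483), a value that passed in 3 of 21 alternatives. MIRLET7A1HG, MIR4458HG and MIR4500HG were not called in any comparison of 2 groups, with log2 fold changes of ΔIDR1b over no ARID1A of -0.20, 0.29 and -0.55 with the empty vector, against -0.45, -0.39 and -0.69 after EWS-FLI1.

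A few further members were called in comparisons of ARID1A states with EWS-FLI1, and none of them was called with the empty vector. MIR193BHG, host of miR-193b and miR-365a, had 5 and 3 counts in no ARID1A and 20 and 22 in ΔIDR1b (log2 2.07, SE 0.73, edgeR adjusted p 0.0248, lost without any 1 of the 4 libraries, up to 0.159). MIR3150BHG, on chromosome 8, had 0 and 0 counts in ΔIDR1b with EWS-FLI1 but 8 and 18 in no ARID1A and 22 and 7 in WT. Against the floor of 3 counts over the group, it was at least 10.6-fold lower than in no ARID1A (95% counting limit 8.03-fold, adjusted p 0.000875) and at least 10.4-fold lower than in WT (limit 7.94-fold, adjusted p 0.0024), and both calls held in all 20 alternatives. MIR4713HG, with 10 and 23 counts in no ARID1A and 2 and 3 in WT, was 7.51-fold lower in WT (95% counting interval 2.91 to 24.6, adjusted p 0.0259, up to 0.244 without repeat 2 of no ARID1A or either repeat of WT). Of the 85 counts of MIR4713HG, 33 lay in no ARID1A with EWS-FLI1, and it met the count limit only through that group. Its place among the tested members thus rests on the group where it was high, which is part of this comparison.

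Other familiar hosts were not called in any comparison of 2 groups. They included MIR29B2CHG, whose microRNAs repress collagens and other matrix genes. It ran from 1.19 to 2.99 CPM in no ARID1A and from 2.56 to 5.21 in ΔIDR1b, and gave a log2 fold change of 0.89 (SE 0.43, edgeR adjusted p 0.112) and 0.88 (SE 0.44, adjusted p 0.122) for ΔIDR1b over no ARID1A. MIR23AHG, which carries the miR-23a, miR-27a and miR-24-2 cluster, gave -0.65 (SE 0.34, adjusted p 0.14) and -0.67 (SE 0.35, adjusted p 0.131). MIR31HG, a neighbour of the CDKN2A locus, had 8 to 29 counts a library, and MIR155HG, the B-cell transcript BIC, 1 to 11. MIR924HG was steady, from 8.41 to 15.0 CPM, with values of -0.02 and 0.19 (SE 0.21 each). Members below the count limit included the hosts of miR-302 (MIR302CHG, 42 counts), miR-130a (MIR130AHG, 14), miR-137 (MIR137HG, 3), miR-200c (MIR200CHG, 2), miR-142 (MIR142HG, 1) and miR-100 (MIR100HG, 1). MIR205HG, MIR122HG and MIR223HG had none, which allows up to 3 counts in each library.

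EWS-FLI1 changed few host genes. In no ARID1A, 0 of 34 members passed edgeR's test for EWS-FLI1 against the empty vector (0.044% of all genes), with 4 at an unadjusted p under 0.05, and DESeq2 gave 0 as well. In WT, 0 passed (0.215% of all genes), with 1 at an unadjusted p under 0.05 and 0 by DESeq2. In ΔIDR1b, 1 passed (2.94%, against 0.171%), and in the average over the 3 states 1 passed (2.94%, against 0.469%). Both calls were MIR3667HG.

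MIR3667HG (chr22:49414524-49657542, minus strand), the host of miR-3667, was nearly silent without EWS-FLI1. It had 0 and 0 counts in no ARID1A, 2 and 2 in WT and 0 and 0 in ΔIDR1b with the empty vector. With EWS-FLI1 it had 11 and 5 counts in no ARID1A, 34 and 15 in WT and 15 and 33 in ΔIDR1b. Every EWS-FLI1 library was above every empty-vector library. MIR503HG was lower with EWS-FLI1 in all 3 states, with an average log2 fold change of -0.21 (SE 0.12, edgeR adjusted p 0.702) that was not called. In ΔIDR1b EWS-FLI1 raised MIR3667HG at least 15.5-fold (48 against 0 counts, floor of 3 counts over the group, 95% counting limit 12.2-fold, edgeR adjusted p 0.00949). In no ARID1A it was at least 6.14-fold higher (16 against 0, limit 4.44-fold), and in WT 12.4-fold (49 against 4, 95% counting interval 4.55 to 47.4), but neither passed the test across all genes (adjusted p 0.626 and 0.134). Averaged over the states it passed (adjusted p 1.75e-05) and did so in all 20 alternatives (up to 0.000404). MIR3667HG met the count limit only through the EWS-FLI1 libraries, so its place among the tested members rests on the libraries where it was high. The call in ΔIDR1b was lost without either empty-vector library or repeat 2 with EWS-FLI1 of ΔIDR1b (up to 0.32), and the gene fell under the count limit when those 4 libraries were fitted alone. The effect of EWS-FLI1 on MIR3667HG did not differ detectably between states. With 0 to 4 counts in each empty-vector group, it left little room to detect such a difference, so equal effects cannot be read from this. Its neighbour BRD1, 115741 bases away on the same strand, gave an average log2 fold change of -0.00 (adjusted p 0.999), and no exon of another gene overlaps MIR3667HG.

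**Figure D5:**
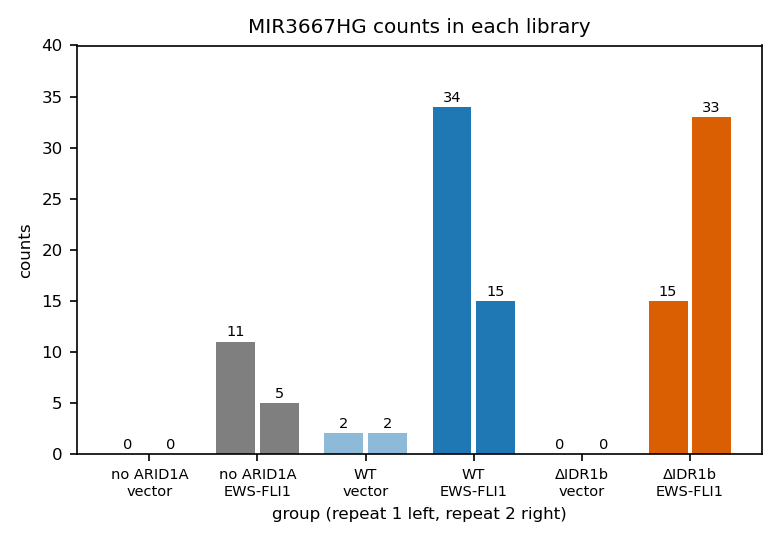
Counts of MIR3667HG in each of the 12 libraries (linear axis from 0), in pale bars with the empty vector and full bars with EWS-FLI1; grey, no ARID1A; blue, WT; orange, ΔIDR1b. The 6 empty-vector libraries hold 0 to 2 counts and the 6 EWS-FLI1 libraries 5 to 34.

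The effect of EWS-FLI1 was then compared between ARID1A states. FLI1 itself was higher in WT than in the other states, and its part in these comparisons was not tested. No member passed edgeR's test of such a difference, with 0 called for WT against no ARID1A (0.0244% of all genes), 0 for ΔIDR1b against no ARID1A (0.0195%) and 0 for ΔIDR1b against WT (0% of all genes). At an unadjusted p under 0.05 there were 1, 5 and 1 members, and DESeq2 also called 0 in each. MIRLET7IHG gave the clearest of these values. EWS-FLI1 gave -1.70 (SE 0.66) on it in no ARID1A, 0.08 (SE 0.53) in WT and 0.46 (SE 0.53) in ΔIDR1b. The differences from no ARID1A were 1.78 (SE 0.85) and 2.16 (SE 0.84), each with an adjusted p of 1.00.

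RefSeq promoters (250 bases before to 50 after the start, GRCh38.p14) were found for 29 of the 34 tested members. Their median GC content was 65.3%, as over all 12620 tested genes with a promoter in the table. The motif GGAAGGAA, a pair of ETS core repeats of the kind EWS-FLI1 binds in microsatellites, was in 0 of 29 on either strand (3.27% of all tested genes). MIR3667HG, the host gene called for EWS-FLI1, was among the 5 members without a promoter in the table and was not searched. CCGGAAGT, a single ETS site, was in those of MIR4733HG and MIR762HG (6.90%, against 7.85%). TGANTCA, the AP-1 site, was in those of MIR155HG and MIR181A1HG (6.90%, against 4.60%). CACGTG, the E-box that MYC binds, was in that of MIR3659HG (3.45%, against 9.67%). A match is a run of letters in this window only. The RefSeq start was not always that of the counted gene model. For MIR99AHG the window began at base 16070238 and the gene model at 15928296. MIR34AHG, MIR646HG and MIRLET7BHG also had windows well inside their gene models.

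Genes of the machinery that turns host transcripts into microRNAs were also called between ARID1A states. Of 30 genes of processing and effector proteins, 29 were tested. WT against no ARID1A called 5 higher and 2 lower with either vector (24.1%, against 11.5 and 17.8% of all genes). ΔIDR1b against no ARID1A called 15 with either vector (51.7% each, against 33.0 and 35.6% of all genes), of which 8 were higher without EWS-FLI1 and 7 with it, with a median log2 fold change of 0.03 and -0.03. No set test was run, and the list was not matched to all genes in level, on which the share called can depend. DGCR8, the RNA-binding partner of DROSHA in the Microprocessor, rose most. It stood at 50.04 and 50.39 CPM in no ARID1A with the empty vector, between 97.1 and 98.8 in WT and between 138.8 and 138.9 in ΔIDR1b. With EWS-FLI1 it ran from 42.4 to 54.2, from 98.9 to 111.7 and from 119.5 to 124.97 CPM. The log2 fold change over no ARID1A was 0.96 (SE 0.12, edgeR adjusted p 4.89e-07) and 1.12 (SE 0.12, adjusted p 1.89e-08) in WT, and 1.47 (SE 0.12, adjusted p 8.66e-12) and 1.34 (SE 0.12, adjusted p 7.12e-11) in ΔIDR1b. DROSHA itself and DICER1 were not called in any of these comparisons.

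AGO2, the Argonaute that can cleave its target, rose by 0.42 (edgeR adjusted p 0.00439) and 0.71 (3.33e-06) in WT and by 0.84 (4.29e-08) and 0.94 (4.55e-09) in ΔIDR1b. LIN28B, which blocks the maturation of let-7, rose by 0.62 (adjusted p 0.00151) and 0.45 (0.012) in WT and by 0.66 (0.000153) and 0.70 (5.05e-05) in ΔIDR1b. The AGO2 call in WT with the empty vector was lost without repeat 2 of either group (up to 0.116), and the LIN28B call in WT with EWS-FLI1 without either repeat of no ARID1A or repeat 1 of WT and in a fit of the compared libraries alone (up to 0.126). TRIM71, a target of let-7, rose in ΔIDR1b by 1.02 (adjusted p 0.00123) and 1.14 (0.000274). Among those that fell in ΔIDR1b were RAN, the GTPase of nuclear export, by 0.44 (adjusted p 0.000602) and 0.27 (0.0275), and DDX17, a helicase of the Microprocessor, by 0.41 (0.000721) and 0.51 (4.28e-05). The RAN call with EWS-FLI1 was lost without repeat 1 or 2 of no ARID1A or repeat 1 of ΔIDR1b (up to 0.266).

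Genes that carry microRNAs under other names were listed from general knowledge as 42 symbols. Of these, 41 were among the gene names counted and 40 were tested. ΔIDR1b against no ARID1A called 10 with the empty vector, of which 8 rose (25.0%, against 33.0% of all genes). With EWS-FLI1 it was 13 (32.5%, against 35.6%), of which 10 rose, with medians of 0.15 and 0.20 beside 0.00 and 0.02 over all genes. PPARGC1B, host of miR-378a and a metabolic coactivator, rose by 1.36 (edgeR adjusted p 1.17e-06) and 1.18 (9.65e-06). SLIT2, host of miR-218-1 and an axon guidance ligand, fell by 0.78 (adjusted p 1.26e-07) and 0.80 (8.28e-08). It also fell with EWS-FLI1 in the average over states, by 0.42 (adjusted p 9.65e-06). Of the 4 tested hosts with a hyphenated symbol, 2 were called higher in ΔIDR1b than in no ARID1A with either vector (50%, against 33.0 and 35.6% of all genes). These were MIR4435-2HG and MIR9-1HG. The MIR9-1HG call with EWS-FLI1 was lost without repeat 1 of no ARID1A or repeat 2 of ΔIDR1b. MIR4435-2HG rose with both forms and both vectors, by 1.01 and 0.95 in WT (edgeR adjusted p 6.4e-05 and 9.67e-05) and by 1.07 and 1.09 in ΔIDR1b (3.5e-06 and 3.01e-06).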

How the data were processed

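PolyA RNA was sequenced in 12 libraries, 2 in each of 6 groups. Per the file headers, the authors made the deposited counts with featureCounts 2.0.1 on exons of GENCODE release 41 (GRCh38), as fragments per gene name with both ends aligned, no strand option and no option to count multi-mapping or overlapping fragments. STAR, SAMtools and edgeR are named without version in the submitters' processing notes, and no normalization is applied in the deposited counts. From these counts, genes with at least 60 counts in total (20463) were scaled by TMM and fitted with 1 mean per group over all 12 libraries in edgeR 4.0.16 (R 4.3.3), with 6 residual degrees of freedom and a biological variation of 10.1%. The SE is the log2 fold change over the square root of F. Intervals of log2 fold changes are the value plus and minus 1.96 SE, a normal limit not adjusted for the number of genes tested. Quasi-likelihood F-tests (2-sided) were run for 13 contrasts and for any difference among the groups, with Benjamini-Hochberg adjustment over all genes. Intervals and limits of counts are exact binomial at 95%, on counts pooled over the 2 libraries of a group. They leave out the spread between libraries and are too narrow where that spread exceeds counting error. Alternatives were RLE and upper-quartile scaling, other filters, DESeq2 1.42.0, the compared libraries alone, replicate blocks, a limit of 1 on the log2 fold change, and each library left out. The procedure was tested on simulated data.

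The members and lists were chosen with earlier results of these data known. Values in every library were given for members called with EWS-FLI1, for those called in the same direction with both vectors, and for the 3 highest per kilobase. Called members of the lists could be named too.

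Over 10695 genes with a mean of at least 10 CPM, same-numbered libraries deviated together within the empty vector (r from 0.104 to 0.194) and within EWS-FLI1 (0.153 to 0.412) but not across vectors (-0.223 to -0.00785). Over 16694 genes with at least 1 CPM, the values within a vector were 0.0165 to 0.149. This pairing comes from the data, not from the labels.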

Additional observations from a re-analysis of the deposited data

How the results depend on the processing

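Of 1041 recomputed values of 50 member results, none reversed, and 27 results lost a call apart from the limit on the fold. Where calls also needed a log2 fold change of 1 in size, the members called were 1 and 5 for WT against no ARID1A (empty vector, then EWS-FLI1), 4 and 7 for ΔIDR1b against no ARID1A, and 2 and 3 for ΔIDR1b against WT. Called with both vectors they were then 1, 3 and 0. Fitting only the compared libraries gave 4 for WT against no ARID1A and 3 for ΔIDR1b against WT with EWS-FLI1, 0 for EWS-FLI1 in ΔIDR1b, and 2 with both vectors for WT against no ARID1A. For ΔIDR1b against WT, DESeq2 gave 3 (empty vector) and 2 with both vectors. No filter gave 1 for EWS-FLI1 in WT (MIR3667HG) and 2 with both vectors for ΔIDR1b against WT.

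Leaving out 1 library at a time gave 2 to 5 and 3 to 10 members for WT against no ARID1A, 8 to 11 and 6 to 13 for ΔIDR1b against no ARID1A, and 3 to 6 and 4 to 6 for ΔIDR1b against WT. With both vectors the ranges were 2 to 4, 5 to 9 and 2 to 4. For EWS-FLI1 they were 0 to 1 in WT, 0 to 1 in ΔIDR1b and 1 to 1 in the average, and 13 to 16 for any difference. With the empty vector, WT against no ARID1A gave 2 without either repeat of no ARID1A or repeat 1 of WT, and ΔIDR1b against WT gave 3 without either repeat of ΔIDR1b. With EWS-FLI1, the 3 comparisons gave 3 to 5 without either repeat of no ARID1A or repeat 2 of WT, 6 or 8 without repeat 1 of no ARID1A or repeat 2 of ΔIDR1b, and 4 without either repeat of ΔIDR1b. With both vectors, WT against no ARID1A gave 2 without any library of no ARID1A or the first empty-vector library of WT. ΔIDR1b against no ARID1A gave 5 without repeat 1 of no ARID1A or repeat 2 of ΔIDR1b with EWS-FLI1, and ΔIDR1b against WT gave 2 without either ΔIDR1b library with EWS-FLI1.

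The replicate block within each vector gave 5 and 10 members for WT against no ARID1A (4 and 8 without it) and 12 and 14 for ΔIDR1b against no ARID1A (11 and 13). Over all genes it raised the calls for EWS-FLI1 from 96 to 506 in the average, from 44 to 250 in WT and from 35 to 161 in ΔIDR1b. The replicate block over all libraries ended the calls of MIR22HG for ΔIDR1b against no ARID1A and of MIR99AHG for ΔIDR1b against WT, both with EWS-FLI1. No scaling moved the median of all genes by over 0.1. Members with few counts, such as MIR22HG and MIR3667HG, are limited by depth.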
